A study of Homo sapiens with 12 samples.

Results

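SLC2A1 and 9 genes of the glycolytic pathway were followed through the 3 deposited lists of chromatin regions of this study, which held 49496 regions in all. The genes were chosen by the density of enzalutamide regions at SLC2A1, seen in earlier results of the same lists, and the enzymes HK1, HK2, PFKFB3, ALDOA, GAPDH, PGK1, ENO1, PKM and LDHA were set beside it. They are 10 of 20037 protein-coding genes, and their loci, each counted as the gene body plus 10 kb to either side, held 56 of the listed regions. Since the values that chose SLC2A1 are enzalutamide region counts, those counts are given as a description with no test.

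The cells were 22Rv1, an androgen receptor-expressing human prostate carcinoma line whose genotype is given as WT in all samples. Groups of 3 samples received for 6 h either vehicle, 1 µM enzalutamide, 100 nM OSU-ERb-12 or both agents, and the labels of the last group state no doses. The treatment label of the vehicle samples states no time, and 6 h was taken for them. Enzalutamide is an androgen receptor antagonist and OSU-ERb-12 a ligand of oestrogen receptor beta. Open chromatin was measured by ATAC-seq, in which a transposase cuts accessible DNA, and the lists are of nucleosome-free fragments. All groups share 1 cell line. Its identity could not be checked against marker genes, because the lists hold no expression values.

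Each list gives regions without a strength, a direction or a value per library. All 3 lists carry the tag neg.sig in their names, which the sources used here do not define. The tag may mean that each list holds changes of a single direction, but which one is not given, so no direction was assigned. A listed region is therefore a position reported for a treatment, presumably against vehicle. The enzalutamide list held 25317 regions, the OSU-ERb-12 list 17931 and the combination list 6248. The depth of the libraries is unknown from the lists and bears on their length, so a gene without a region may still have changed. Counts have no replicate error.

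Glucose enters most cells through facilitative transporters of the SLC2A family, of which GLUT1, the product of SLC2A1, is expressed in most tissues. Hexokinases trap the sugar by phosphorylation, the following enzymes of the pathway split and oxidise it to pyruvate, and lactate dehydrogenase reduces pyruvate to lactate. Many of these genes are classical targets of hypoxia-inducible factors and MYC, and tumours commonly raise their expression. Prostate epithelium is unusual in secreting citrate, and a shift in its fuel use is a known feature of advanced prostate cancer.

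The promoters that the enzalutamide list reached are shown first, beside that of SLC2A1, which it did not reach. RefSeq promoter windows of GRCh38.p14, from 250 bp before to 50 bp after an annotated start site, were found for 10 of the 10 genes, 21 windows in all. Enzalutamide regions overlapped 5 of these windows, in HK1 (2 windows), HK2, PGK1 and ENO1. Of all 15843 protein-coding genes with such windows, 12.2% had one overlapped by an enzalutamide region, so 4 of 10 genes stand against that background. Genes with several windows had more chances of an overlap. By window, 5 of 21 stand against 2190 of 22199. OSU-ERb-12 and combination regions overlapped none of the 21 windows, where the background was 1.74% and 2.41% of genes.

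The 250 bases before the start site are printed 5′ to 3′ on the strand of the gene for 1 window of each gene. Capitals mark bases inside an enzalutamide region. The windows are chr1:42958869-42959118 (minus strand) for SLC2A1, chr10:69317931-69318180 (plus) for HK1, chr2:74834920-74835169 (plus) for HK2, chrX:78103998-78104247 (plus) for PGK1 and chr1:8878687-8878936 (minus) for ENO1.
SLC2A1: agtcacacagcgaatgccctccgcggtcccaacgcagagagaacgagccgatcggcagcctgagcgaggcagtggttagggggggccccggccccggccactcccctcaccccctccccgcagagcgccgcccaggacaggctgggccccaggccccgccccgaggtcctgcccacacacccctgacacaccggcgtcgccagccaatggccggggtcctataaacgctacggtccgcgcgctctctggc
HK1: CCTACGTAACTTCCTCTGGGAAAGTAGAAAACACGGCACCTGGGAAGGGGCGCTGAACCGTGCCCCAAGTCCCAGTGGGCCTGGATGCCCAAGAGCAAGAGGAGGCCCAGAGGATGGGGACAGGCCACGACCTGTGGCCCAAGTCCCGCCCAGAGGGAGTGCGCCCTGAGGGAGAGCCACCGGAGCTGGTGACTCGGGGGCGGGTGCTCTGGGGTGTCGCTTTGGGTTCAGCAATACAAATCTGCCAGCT
HK2: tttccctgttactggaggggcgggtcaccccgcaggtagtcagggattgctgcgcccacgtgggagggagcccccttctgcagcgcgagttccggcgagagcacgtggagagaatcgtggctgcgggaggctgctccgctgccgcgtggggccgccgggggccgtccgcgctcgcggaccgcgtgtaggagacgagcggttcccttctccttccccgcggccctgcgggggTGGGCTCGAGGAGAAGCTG
PGK1: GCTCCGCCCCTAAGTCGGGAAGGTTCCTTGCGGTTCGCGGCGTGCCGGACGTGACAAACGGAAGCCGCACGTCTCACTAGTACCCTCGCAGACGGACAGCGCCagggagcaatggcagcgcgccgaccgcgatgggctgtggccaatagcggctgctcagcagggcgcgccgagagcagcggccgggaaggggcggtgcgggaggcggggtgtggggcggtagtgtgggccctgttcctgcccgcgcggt
ENO1: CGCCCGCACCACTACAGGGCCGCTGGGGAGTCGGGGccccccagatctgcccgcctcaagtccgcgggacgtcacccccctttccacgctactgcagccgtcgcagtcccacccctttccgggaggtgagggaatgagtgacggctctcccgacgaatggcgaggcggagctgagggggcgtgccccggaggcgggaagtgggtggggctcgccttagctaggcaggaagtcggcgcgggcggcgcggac

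All 250 printed bases of HK1 lay inside a region, as did 103 of PGK1, 36 of ENO1 and 19 of HK2, and none of SLC2A1. The region therefore sat on the start site at HK1, ended short of it at PGK1 and ENO1, and began just before it at HK2. The G and C content of the whole window was 71.0% at SLC2A1, against 64.0% at HK1, 71.7% at HK2, 70.7% at PGK1 and 69.7% at ENO1. Over all 22199 windows of protein-coding genes the median was 62.3%, and over the 2190 windows that an enzalutamide region overlapped it was 66.7%.

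Short motifs were searched on both strands of all 300 bases of each window. GGGCGG, the GC box bound by SP1-type factors, was present at all 10 genes, against 64.3% of all genes with windows. ACGTG, the core of the hypoxia response element, was present at 6 of 10 genes (HK2, PFKFB3, ALDOA, GAPDH, PGK1 and LDHA), against 28.5% of genes. Its extension CACGTG, the E-box read by MYC-type factors and by definition also an ACGTG match, was present at 5 of the 6, all but PGK1, against 10.9% of genes. SLC2A1 had neither in its single window. At PGK1 2 of 3 matches to ACGTG began 202 and 183 bp before the start site and lay inside the enzalutamide region, whereas at HK2 the 2 E-boxes began 194 and 149 bp before the start site and lay outside it.

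Steroid receptor motifs were searched in the same windows. TGTTCT, a single arm of the androgen response element, was found at ALDOA alone, against 14.9% of genes. GGTCA, a single arm of the oestrogen response element, was found at HK1, HK2, PFKFB3 and GAPDH, against 42.7% of genes. The AP-1 motif TGANTCA was found at HK1 alone (8.04% of genes), and the forkhead motif TGTTTAC at none of the 10 (3.75% of genes). These are matches of letters, not sites, and genes with several windows had more sequence searched.

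SLC2A1 lies on chromosome 1 from 42925353 to 42958868 on the minus strand, and its locus of 53.5 kb held 15 enzalutamide regions, 2 OSU-ERb-12 regions and a single combination region. From the length of the locus and the mean density of each list on the chromosome, 0.597, 0.531 and 0.175 would be expected. A number of 15 or more was reached by 6 genes, 0.0299% of all protein-coding genes. SLC2A1 had the shortest locus of these. LOC124905135 (89.3 kb) held 18, and AFF3, ESRRG, ANKS1B and DLG2, with 16, 16, 16 and 18 regions, have loci of 617 kb or more.

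**Figure D1:**
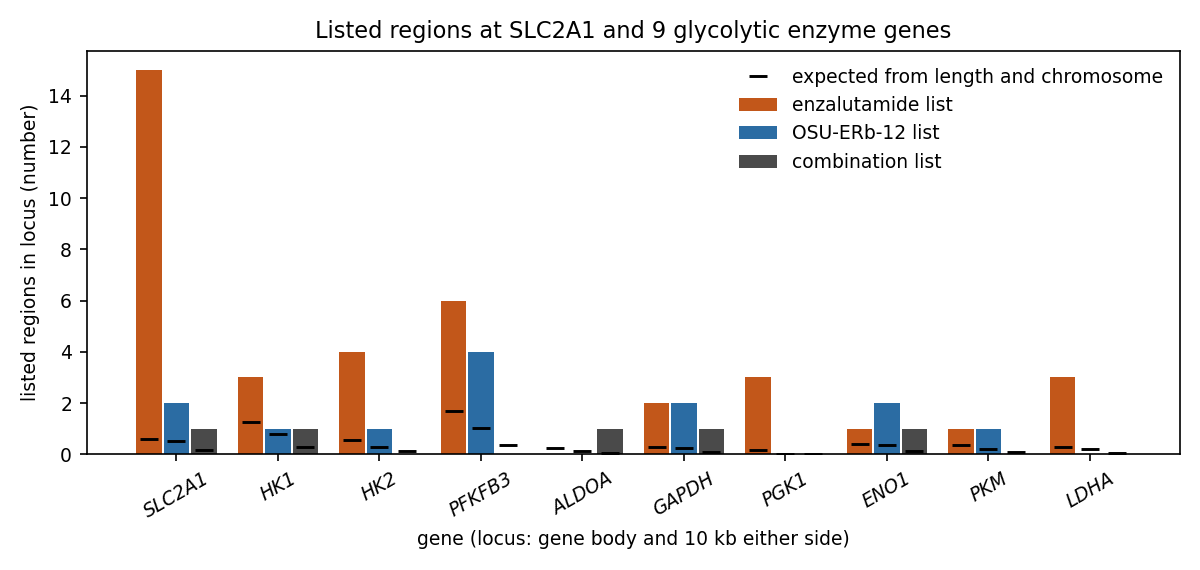
Bars give the number of listed regions (vertical axis) in the locus of each gene (horizontal axis) for the 3 lists, and black dashes the number expected from the length of the locus and the mean number of regions per kb of its chromosome. SLC2A1 stands at 15 in the enzalutamide list, and the enzymes run from 0 at ALDOA to 6 at PFKFB3.

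Among the 12034 genes with a locus length within 2 times that of SLC2A1, the median was 1 enzalutamide region and the 99th percentile 5, and 2 genes, SLC2A1 itself and LOC124905135, reached 10 or more. By regions per kb of locus SLC2A1 ranked second of all genes, at 28.0 per 100 kb, and by the ratio to the expected number it ranked 32. The megabase on either side of the locus together held 30 enzalutamide regions, or 1.5 per 100 kb. Closer by, the 100 kb before the locus held 1 enzalutamide region and the 100 kb after it 4, so the density fell off at both edges.

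**Figure D2:**
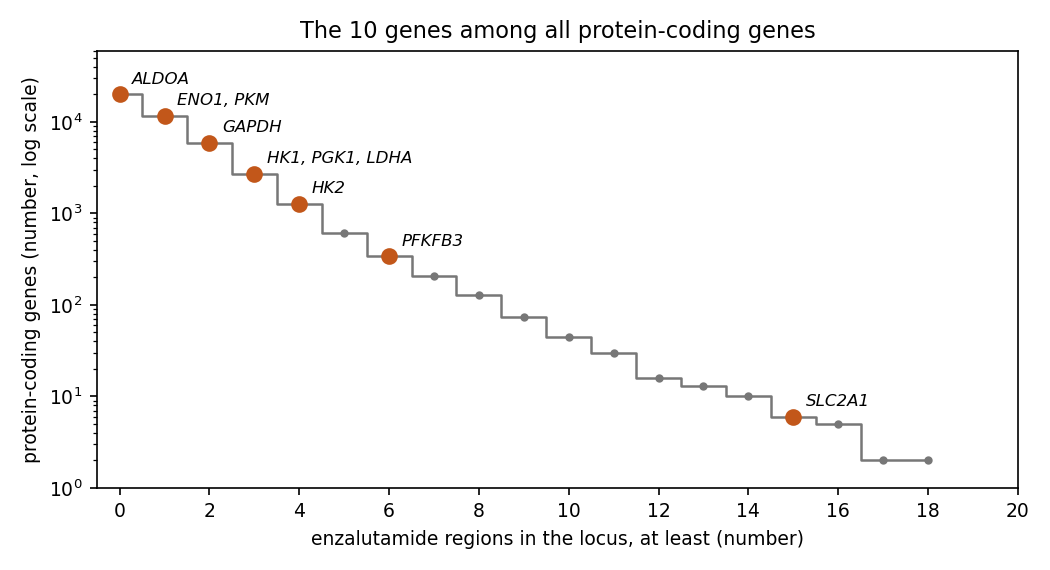
The curve gives the number of protein-coding genes (vertical, log scale) whose locus held at least the number of enzalutamide regions on the horizontal axis, with the 10 genes marked in orange. SLC2A1 lies at 15 regions, a number that 6 genes reached, while HK1, PGK1 and LDHA lie at 3, which 2727 genes reached.

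The 15 enzalutamide regions ran through the gene body, with none at its promoter. Of these, 12 overlapped the gene, 2 lay past its 3′ end and 1 lay upstream. None lay within 1 kb of the start site. The nearest was chr1:42961501-42961700, 2633 bp upstream and inside the divergent noncoding gene SLC2A1-DT, and the first within the gene was chr1:42953051-42953350, 5518 bp downstream of the start site. The other 11 regions in the gene lay 14368 bp or more after the start site.

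A dense stretch followed from near the middle of the gene towards its 3′ end. From chr1:42944301-42944500, 14368 bp after the start site, to chr1:42930351-42930600, 28268 bp after it, 10 regions stood within 14.2 kb with no gap above 3 kb. No other run of enzalutamide regions in the genome, chained with gaps of up to 3 kb, had as many, and 92.0% of the 23163 chains were single regions. With gaps of up to 2 kb or 5 kb the SLC2A1 chain had 8 and 13 regions and was again the largest of the list. The 3 gap limits were chosen after the data were seen.

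The widest region of the cluster was chr1:42941901-42942750, at 850 bp. Regions of this width or more made up 0.427% of the enzalutamide list (108 regions). The other 14 were 200 to 400 bp wide, and 7 of the 15 had the minimum of 200 bp. The median gap between neighbours was 1625 bp, against 54.8 kb over the list. Narrow spacing also means that the count depends on where 1 region is taken to end: with neighbours within 1 kb counted as 1 the cluster had 9, at which it ranked 39 of all genes counted the same way.

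Past the 3′ end of SLC2A1 the cluster went on. The regions chr1:42925651-42925950, inside the gene, and chr1:42924751-42924950, outside it, lay 298 and 403 bp from the end, and chr1:42922401-42922800 lay 2553 bp beyond it. Introns and exons were not distinguished, since the annotation used gives the extent of genes only.

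**Figure D3:**
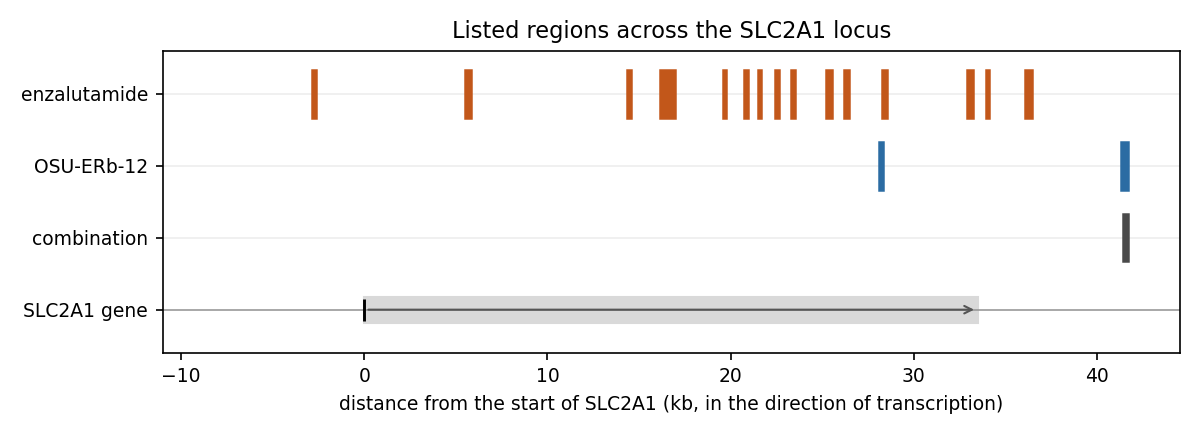
Coloured blocks mark the listed regions of the 3 lists by distance from the start of SLC2A1 in kb (horizontal axis). They stand above the gene (grey) with its start site (black tick) and direction (arrow). The outline of the blocks makes the narrow ones look wider than they are. Of the 15 enzalutamide blocks 12 fall in the gene. Of the 2 OSU-ERb-12 blocks, the one at 28.2 kb touches an enzalutamide block inside the gene, and the one at 41.5 kb overlaps the combination block at 41.6 kb, beyond the gene.

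The other lists held 3 regions at this locus. The OSU-ERb-12 list had chr1:42930551-42930750 inside the gene, which overlapped an enzalutamide region by 50 bp, and chr1:42917201-42917550, 7803 bp past the 3′ end. The only combination region, chr1:42917151-42917450, overlapped the latter by 250 bp and no enzalutamide region. Thus 1 of the 15 enzalutamide regions overlapped another list, near the 9.14% of all enzalutamide regions that did. No position at this gene was in all 3 lists, but only 1 combination region was present there. The share of regions in all 3 lists was not computed, so this does not set the gene apart.

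No other protein-coding locus overlapped that of SLC2A1. Which gene a region acts on, if any, was not tested. The nearest protein-coding genes were ZNF691, 72.9 kb away, with no region of any list in its locus, and CFAP144, 184 kb away on the other side, with 1 enzalutamide region.

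The genes most like SLC2A1 were taken as those with the smallest summed difference in regions per kb over the 3 lists, among 12032 genes of like locus length. They were LOC124902461 with 8 enzalutamide regions, MAP2K7, a kinase of the JNK pathway, with 7, EFNA1, which encodes an ephrin ligand, with 6, TBX3, a T-box transcription factor gene, with 8, and ELP5, an Elongator subunit gene, with 6. Each held at most 2 OSU-ERb-12 regions and at most 1 combination region. All 5 had loci of 27.0 to 33.9 kb, shorter than that of SLC2A1, so their likeness is in density and not in number.

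The 9 enzyme genes held between 0 and 6 enzalutamide regions each, 23 in all, so none held as many as SLC2A1. At least 1 was present at 8 of the 9, all but ALDOA, where 58.3% of protein-coding genes had one. OSU-ERb-12 regions were present at 6 of the 9 (39.1% of all genes) and combination regions at 4 (21.7% of all genes), with 11 and 4 regions. From locus length and chromosome 5.26, 3.31 and 1.22 would be expected at these 9 loci. Over all protein-coding genes the 3 lists also exceeded that expectation when each region is counted once per locus. The counts were 23080 enzalutamide regions against 14800, 13841 OSU-ERb-12 regions against 10600 and 5567 combination regions against 3730. The median was 3 enzalutamide regions per enzyme gene against 1 over all genes.

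The hexokinases carry out the first step. HK1, the widely expressed form (chromosome 10, 69270000 to 69401882), held 3 enzalutamide regions, 1 OSU-ERb-12 and 1 combination region, none of which overlapped. Its enzalutamide regions chr10:69317501-69318450 and chr10:69318901-69319100 covered annotated start sites at 69318181 and 69319064, and the former, 950 bp wide, was among the 50 regions of this width or more in the list. The gene has 7 annotated start sites, and the other 5 were not covered.

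HK2, the inducible hexokinase of tumours and muscle (chromosome 2, 74834127 to 74893359), held 4 enzalutamide regions and 1 OSU-ERb-12 region. The region chr2:74835151-74835400 covered the downstream of its 2 start sites, 2 lay 28731 and 32631 bp further into the gene, and 1 lay 8942 bp past the 3′ end. The OSU-ERb-12 region lay 5777 bp upstream of the gene. Both hexokinase genes thus had an enzalutamide region on a start site.

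PFKFB3 encodes the kinase that makes the allosteric activator of phosphofructokinase. Its locus (chromosome 10, 6144921 to 6326637) is the longest of the 10, at 202 kb, and held 6 enzalutamide and 4 OSU-ERb-12 regions, where 1.68 and 1.04 would be expected. No enzalutamide region there overlapped an OSU-ERb-12 region, where 9.14% of all enzalutamide regions overlapped a region of another list. None came within 500 bp of one either, for which no share over the list was computed. The enzalutamide region chr10:6203451-6203650 lay 519 bp downstream of a start site. The widest OSU-ERb-12 region at any of the 10 genes, chr10:6329251-6329900 with 650 bp, lay 2614 bp past the 3′ end, inside the noncoding gene LINC02649.

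ALDOA, the aldolase of muscle and most tumours (chromosome 16, 30064279 to 30070420), was the exception. It held no enzalutamide and no OSU-ERb-12 region, and 1 combination region, chr16:30070501-30070700, which began 81 bp past its 3′ end. At 26.1 kb its locus is short, and 0.237 enzalutamide regions would be expected. The megabase on either side was not empty, with 58 enzalutamide regions.

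GAPDH, the dehydrogenase of the pathway (chromosome 12, 6534517 to 6538371), has the shortest locus, at 23.9 kb, and held 2 enzalutamide, 2 OSU-ERb-12 regions and 1 combination region. An enzalutamide region of 550 bp, chr12:6537601-6538150, lay inside the gene, 221 bp from its 3′ end. The OSU-ERb-12 region chr12:6530701-6530950 and the combination region chr12:6530751-6530950 overlapped by 200 bp, lay 3567 bp upstream of GAPDH and fell inside the neighbouring gene NCAPD2. The other OSU-ERb-12 region fell inside IFFO1, so none of these 3 lay in GAPDH itself.

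PGK1, the first ATP-forming enzyme of the pathway (chromosome X, 78104248 to 78129295), held 3 enzalutamide regions and none of the other lists. All 3 stood around the start site: chrX:78101501-78101850 ended 2398 bp before it, chrX:78103751-78104100 ended 148 bp before it and chrX:78105101-78105300 began 853 bp after it. The surroundings were sparse, with 4 enzalutamide regions in the megabase on either side.

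ENO1, the common enolase (chromosome 1, 8861000 to 8878686), held 1 enzalutamide, 2 OSU-ERb-12 regions and 1 combination region, none overlapping. Overlap with another list was found for 9.14%, 11.7% and 24.8% of these whole lists, so its absence here does not set ENO1 apart. The enzalutamide region chr1:8878901-8879200 lay 215 bp upstream of the start site, within the antisense noncoding gene ENO1-AS1. PKM, whose splice forms include the pyruvate kinase of tumours (chromosome 15, 72199029 to 72231591), held 1 enzalutamide and 1 OSU-ERb-12 region. These were nearly the same region, chr15:72199651-72199950 and chr15:72199651-72199900, 622 bp from the 3′ end of the gene.

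LDHA, the lactate dehydrogenase subunit that favours lactate formation (chromosome 11, 18394563 to 18408425), held 3 enzalutamide regions and none of the other lists. The region chr11:18407401-18407750 lay 675 bp from the 3′ end and another 1976 bp beyond it. The other one lay 9913 bp upstream of the gene, just inside the 10 kb limit, and the next, at chr11:18383401-18383650, fell just outside, at 10913 bp. Of the 10 genes LDHA was the only one with a region within 1 kb of the limit.

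**Figure D4:**
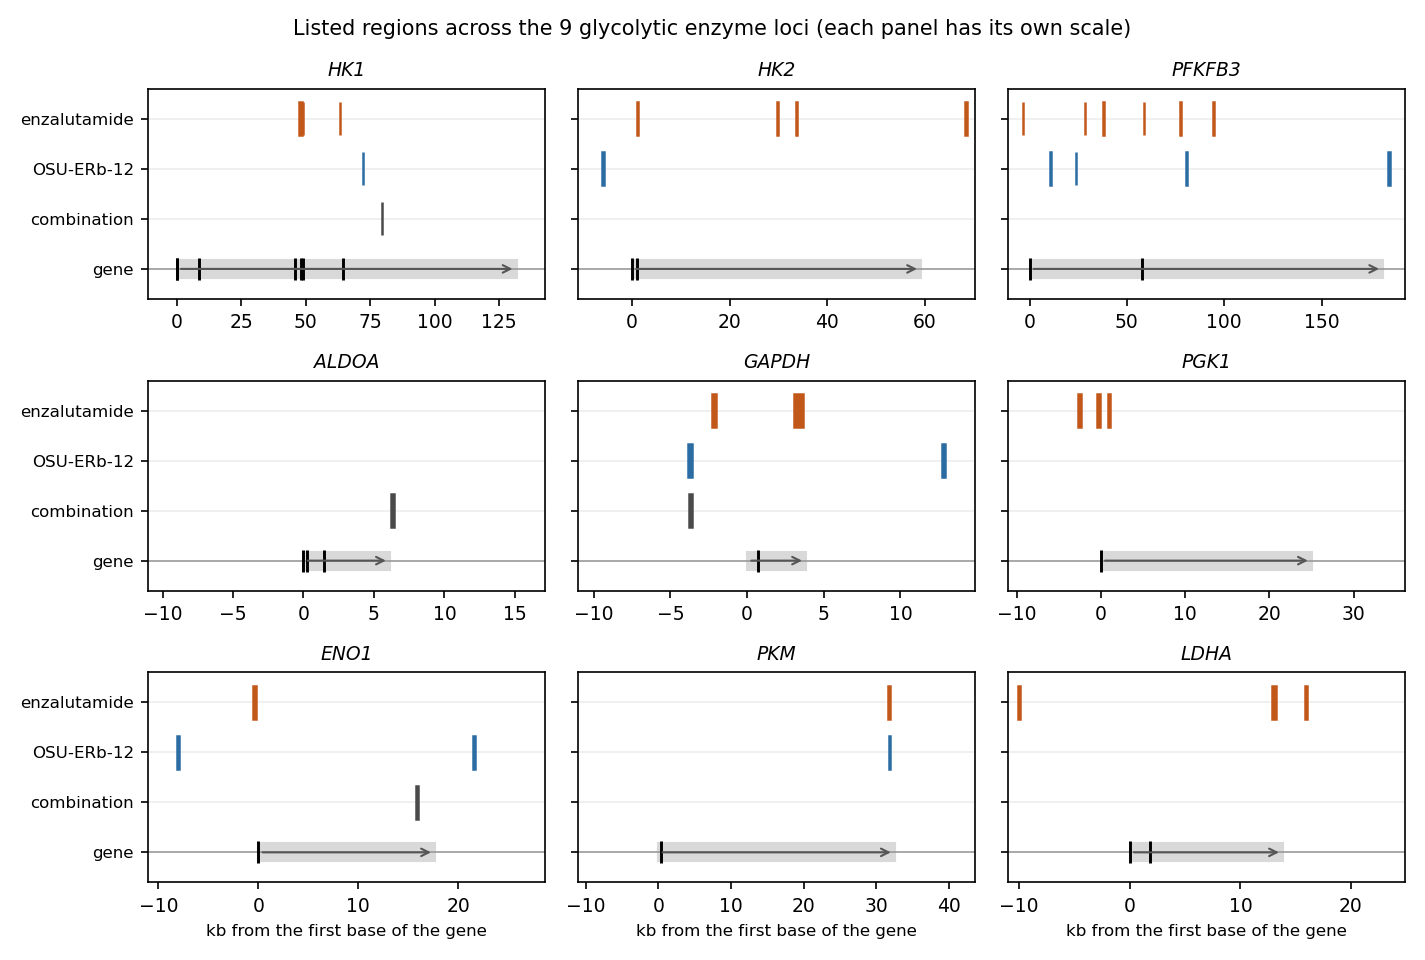
Each panel shows 1 enzyme locus with its own scale in kb from the first base of the gene (horizontal axis), the gene in grey, its annotated start sites as black ticks and the listed regions of the 3 lists as coloured blocks, with a minimum line width that widens the smallest. The 3 enzalutamide blocks of PGK1 surround its start site, whereas the enzalutamide block of PKM lies near the 3′ end with the OSU-ERb-12 block, and ALDOA has a combination block only.

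The positions of enzalutamide regions along the gene are set side by side for the transporter and the enzymes. Within 1 kb of a start site of any protein-coding gene lay 7 of the 23 enzyme regions (30.4%; exact Clopper-Pearson 95% interval 13.2 to 52.9) and 0 of the 15 at SLC2A1 (upper limit 21.8%). The share was 20.3% of the 23953 enzalutamide regions on the chromosomes with promoter windows. Within 1 kb of a 3′ end of a protein-coding gene lay 4 of the 23 (17.4%; 4.95 to 38.8) and 2 of the 15 (13.3%; 1.66 to 40.5), against 3.13% of all. Regions of 1 gene are not independent and the intervals cover counting only, so these shares describe the loci. The difference between the transporter and the enzymes was not tested. The 20.3% and 3.13% also count regions outside gene loci, whereas the 23 and 15 were drawn from gene loci only. Drawing regions from loci can by itself raise the share near gene ends, so no excess over the list was inferred.

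The overlap between lists at the 10 genes rests on few regions. Of the 38 enzalutamide regions, 2 overlapped a region of another list by 1 bp or more, 1 each at SLC2A1 and PKM, and both overlapped OSU-ERb-12 regions. In the whole enzalutamide list the share was 9.14%, so these 2 do not set the 10 genes apart. Of the 13 OSU-ERb-12 regions at these genes 4 were shared, against 11.7% of that list, and of the 5 combination regions 2, those of SLC2A1 and GAPDH, both with OSU-ERb-12, against 24.8%. No combination region at the 10 genes overlapped an enzalutamide region, but these are 5 regions only. The share of the whole combination list that overlaps enzalutamide regions was not computed, so this does not set the 10 genes apart. The treatments were presumably set against the same vehicle samples, so the lists are not independent of each other.

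The rest of the pathway showed no second cluster of this size. Among 24 other glycolytic enzymes and isoforms, an enzalutamide region was found at 16 (66.7%, against 58.3% of all genes), OSU-ERb-12 regions at 13 (54.2%, against 39.1%) and combination regions at 8 (33.3%, against 21.7%). These genes held 37 enzalutamide regions against 11.5 expected, and the median was 1. PFKFB2, the heart-type counterpart of PFKFB3, led with 8 enzalutamide, 4 OSU-ERb-12 and 1 combination region. The neuronal and muscle enolases ENO2 and ENO3 each held 4, 2 and 1. The phosphofructokinase genes PFKL and PFKP held 3 enzalutamide regions each. HKDC1 and GAPDHS held 1 of each list and TPI1, the triose isomerase, 1, 1 and 2.

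Of the 13 other members of the transporter family, 8 held an enzalutamide region (61.5%, against 58.3% of all genes), 8 an OSU-ERb-12 region (61.5%, against 39.1%) and 4 a combination region (30.8%, against 21.7%). They held 19 enzalutamide regions against 12 expected. SLC2A13, a proton-coupled inositol transporter gene, held 5 enzalutamide regions in a locus of 371 kb, where 4.4 would be expected. SLC2A4, which encodes the insulin-responsive GLUT4, held 3 enzalutamide, 1 OSU-ERb-12 and 2 combination regions in 26.5 kb, and SLC2A12 held 3, 2 and 1. SLC2A9, a urate transporter gene, held 2, 1 and 2 and SLC2A8 2 enzalutamide regions. SLC2A3, which encodes the high-affinity GLUT3, held no region of any list. The next highest count in the family after the 15 at SLC2A1 was thus 5.

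**Figure D5:**
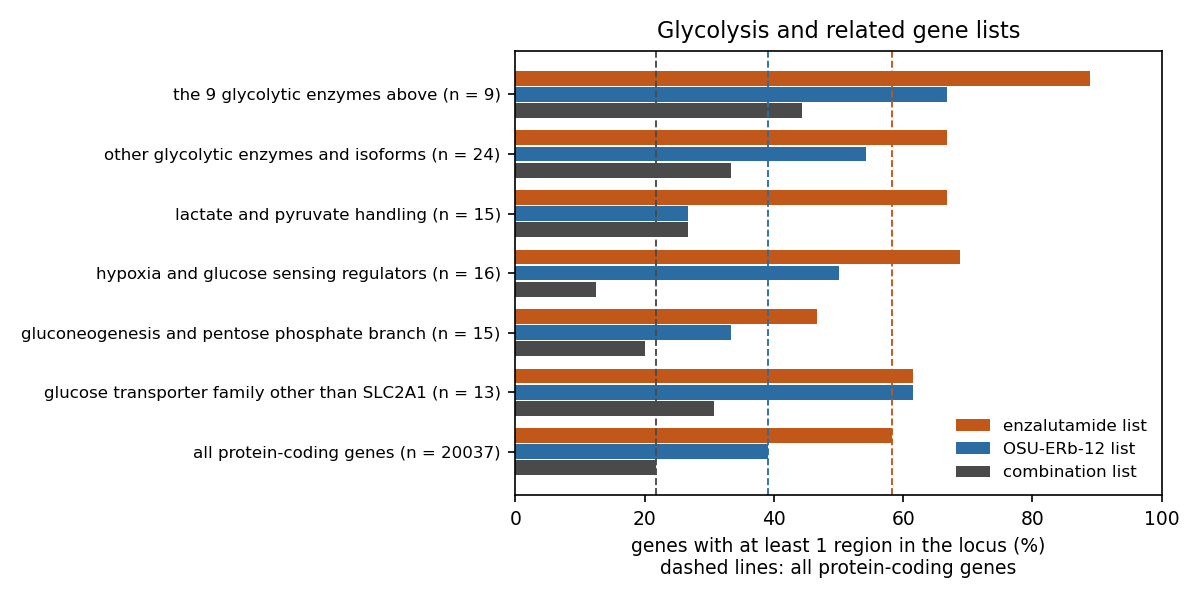
Bars give the percentage of genes in each gene list (vertical axis, with the number of genes) that held at least 1 region in the locus for the 3 treatments, and dashed lines give the same over all protein-coding genes (58.3%, 39.1% and 21.7%). The 9 enzymes lie above the lines for all 3 lists, at 88.9%, 66.7% and 44.4%, while gluconeogenesis and pentose phosphate genes lie below them.

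Genes that handle pyruvate and lactate held an enzalutamide region at 10 of 15 members (66.7%, against 58.3% of all genes), and 11 regions in all against 8.69 expected. MPC1, a subunit gene of the mitochondrial pyruvate carrier, led with 2, while the lactate transporter gene SLC16A1 held none of any list, SLC16A3 held 1 enzalutamide region and SLC16A7 1 of each list. OSU-ERb-12 and combination regions were present at 4 of the 15 genes each (26.7%, against 39.1% and 21.7% of all genes).

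Regulators of the hypoxia and glucose responses held an enzalutamide region at 11 of 16 members (68.8%, against 58.3% of all genes), OSU-ERb-12 regions at 8 (50.0%, against 39.1%) and combination regions at 2 (12.5%, against 21.7%). They held 27 enzalutamide regions against 11 expected. TBC1D1, a Rab GTPase-activating protein gene of GLUT4 traffic, led with 5 enzalutamide, 5 OSU-ERb-12 and 2 combination regions. The arrestin-domain gene ARRDC4 held 4 enzalutamide regions, and its relative TXNIP, which restrains glucose uptake, held 3. HIF1A held 2 enzalutamide regions and EPAS1 and EGLN2 held 3 each. ARNT and VHL held no enzalutamide region, but 2 and 1 OSU-ERb-12 regions. For gluconeogenesis and the pentose phosphate branch the numbers were 7, 5 and 3 of 15 genes (46.7%, 33.3% and 20.0%, each below the share of all genes), with 15 enzalutamide regions against 6.09 expected. The pyruvate carboxylase gene PC led with 4 enzalutamide regions, FBP1 held 2, 3 and 1 and TALDO1 2, 2 and 1, and the pentose phosphate genes PGD and TKT held no region of any list.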

How the data were processed

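ATAC-seq was done on 12 samples of 22Rv1 cells. Per the labels' protocols, nucleosome-free fragments were separated with ATACSeqQC. Per the submitters' processing notes, FastQC and Trimmomatic were used with hg38. How peaks were called, compared, pooled over replicates, shifted for the transposase and signed is not given in the sources used. The deposited lists give region start and end positions, on a 50 bp grid, and a score that the authors left at 0 in every row. Lists were matched to treatments by the prefix shared with sample titles, which for OSU-ERb-12 is WT, so its values rest on that match. The sequencing depth is unknown.

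Regions were counted at RefSeq GRCh38.p14 genes with Python 3.11.15 and pandas 2.3.3, from 1 bp of overlap, and the counting was tested on simulated data. Promoter windows on 23 chromosomes were used, with no window of chromosome 8. The genes and gene lists were chosen with earlier results of these data known. Named genes are the 10, up to 4 per list with most enzalutamide regions (some ties included) or regions of all 3 lists, neighbours and the 5 most alike. Others were named after their values were seen: 5 genes with 15 or more regions, and SLC2A3, SLC16A1, HIF1A, ARNT, VHL, PGD and TKT. Some genes in these lists are not reported here by name. Alternatives were other locus windows, stricter lists, merging, overlap rules and ranking measures.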

Additional observations from a re-analysis of the deposited data

How the results depend on the processing

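No paired analysis was possible because the lists hold no values per library, and for the same reason no replicate could be left out. Of 55 recomputed values, 35 moved by less than 1.5 times or within their interval. Of the locus settings, counting the gene body alone left 1 OSU-ERb-12 and 0 combination regions at SLC2A1, 3 enzyme genes with an OSU-ERb-12 region, 2 with a combination region, 15 enzalutamide regions at enzyme genes and rank 12 for SLC2A1 by enzalutamide regions (main rank 6). With 5 kb either side SLC2A1 held 1 OSU-ERb-12 and 0 combination regions, and with 50 kb the enzyme genes held 36 enzalutamide regions. With only regions wider than 200 bp, SLC2A1 held 8 enzalutamide regions (rank 11) and 1 OSU-ERb-12 region, the enzyme genes held 12 enzalutamide regions, 0 enzyme genes had a combination region and 1 enzalutamide region was shared with another list, as when an overlap of 50% of the shorter region was needed (1). With neighbours within 1 kb counted as 1, SLC2A1 held 9 enzalutamide regions and ranked 39, and by regions per kb it ranked 2. Within 1 kb of the outer bounds of a protein-coding gene lay 23.7% of the 38 enzalutamide regions (exact 95% interval 11.4 to 40.2), and within 5 kb 42.1%. Annotated start sites inside those bounds were not counted here, unlike above, and the share over the whole list was not computed. The smaller counts follow from fewer regions or less sequence counted.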
